A study of Homo sapiens with 6 samples.

Results

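The 33 genes that encode the subunits of the human Mediator complex were followed in RNA-seq counts of HCT116 cells. They were chosen by symbol, as MED followed by a number with or without a final L, together with CDK8, CDK19 and CCNC, and all 33 of them were found among the 57905 genes counted. HCT116 is an established colorectal carcinoma line with wild-type p53, and 1 line was used throughout. Cells were collected after 1 h (Nut1h) or 10 h (Nut10h) of 10 µM Nutlin-3a, a compound that blocks the binding of p53 to MDM2, or after DMSO vehicle alone (Nut0h), with the libraries BR1 and BR2, called replicates 1 and 2 here, in each group and 6 in all. The vehicle cells stand for the untreated state, and the labels do not give how long they were kept in DMSO. The study names BR1 and BR2 biological replicates, and the sources used here do not say whether these were separate cultures, so the p-values measure the spread between these libraries.

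Mediator is a large assembly that passes signals from DNA-bound transcription factors, p53 among them, to RNA polymerase II. Its head and middle modules contact the polymerase, its tail module binds most activators, MED14 runs through the complex as a backbone, and a separable kinase module of CDK8 or CDK19 with cyclin C (CCNC), MED12 and MED13 can sit on the core and block its contact with the polymerase. Vertebrates carry paralogs of 3 kinase module subunits, named CDK19, MED12L and MED13L. The values below are levels and differences of mRNA, and Mediator protein was not measured.

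The libraries held 26068076 to 35473485 counts on genes, of which 4.99% to 8.44% lay on the mitochondrial genome. Both Nut1h libraries stood apart from the other 4, with the lowest totals (31731267 and 26068076) and the highest mitochondrial shares (8.44% and 8.15%, against at most 7.06%), and the part of depth in the Nut1h differences was not tested. Without the mitochondrial counts 13 members were called higher and 13 lower at Nut1h, as many as with them. That setting only removes those genes, and what the higher mitochondrial shares at Nut1h reflect was not tested. After edgeR's filter on low counts 16565 genes were tested, and all 33 members passed with 136 to 9689 counts in each library. The epithelial markers EPCAM, CDH1, KRT8, KRT18 and KRT19 were abundant and CDX2 had 412 to 1377 counts, VIL1 stood at 0 to 10 counts and KRT20 at 15 to 37, PTPRC and ALB had at most 2 counts, COL1A2 at most 25, and COL1A1, which is best known from fibroblasts, had 621 to 1484. Of the p53 targets used as a check, MDM2 rose at both times, with log2 fold changes of 2.19 and 3.75, and CDKN1A was not called at Nut1h (0.046) and rose at Nut10h (3.84). These values are without the GC-content offset described below. At Nut1h all tested genes under 40% transcript GC content, where MDM2 belongs, had a median log2 fold change of 0.81. Those from 55% to 60%, where CDKN1A belongs, had -0.62.

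At Nut1h the members moved in both directions. Relative to Nut0h, 13 of the 33 were called higher and 13 lower, which is 39.4% each, against 34.5% higher and 32.3% lower among all tested genes (edgeR's quasi-likelihood test, adjusted p of at most 0.05 over all 16565 genes). The largest changes depended on the GC-content offset described below, with which MED26 rose more than CCNC and MED30 fell more than MED25. Without it, the cyclin gene CCNC had the largest rise and the tail subunit gene MED25 the largest fall. The median log2 fold change of the members was -0.055, with quartiles of -0.63 and 0.50 and a range from -1.73 to 1.23, beside a median of 0.045 over all tested genes, and this median of the members was 0.064 without Nut0h replicate 2 and 0.059 without Nut1h replicate 1. The median size of the change regardless of sign was 0.57 for the members and 0.63 for all genes. In bulk RNA, less of a transcript in each cell and fewer cells that hold it cannot be told apart.

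At Nut10h fewer members were called. Only MED23, MED13L and MED12 were called higher (9.09% of the members, against 14.1% of all tested genes) and MED25 and MED27 lower (6.06%, against 14.9%), and 28 members were not called. The calls lower depended on single libraries. No member was called lower without Nut0h replicate 1 or Nut10h replicate 2, and calls over all tested genes fell there as well. Without Nut0h replicate 2 or Nut10h replicate 1 more members were called lower. The calls higher were kept in each of these fits, and others were gained in some. The median log2 fold change was -0.067, beside 0.00017 over all genes. Both comparisons share the Nut0h libraries. MED23 was called higher and MED25 and MED27 were called lower at both times, MED12 was called in opposite directions, 22 members were called at Nut1h only and 6 at neither time. The median size of the change at Nut10h, regardless of sign, was 0.21 for the members and 0.27 for all genes. Between Nut10h and Nut1h, 11 members were called higher (33.3%, against 34.2% of all tested genes) and 10 lower (30.3%, against 33.7%). Libraries of Nut1h and Nut0h did not overlap in 16 members that were higher and 14 that were lower, where 44.2% and 40.6% of all genes did not overlap. For Nut10h and Nut0h the numbers were 9 and 11 members, beside 31% and 30.4% of all genes, and for Nut10h and Nut1h 14 and 12 members, beside 42.1% and 42.9%.

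**Figure D1:**
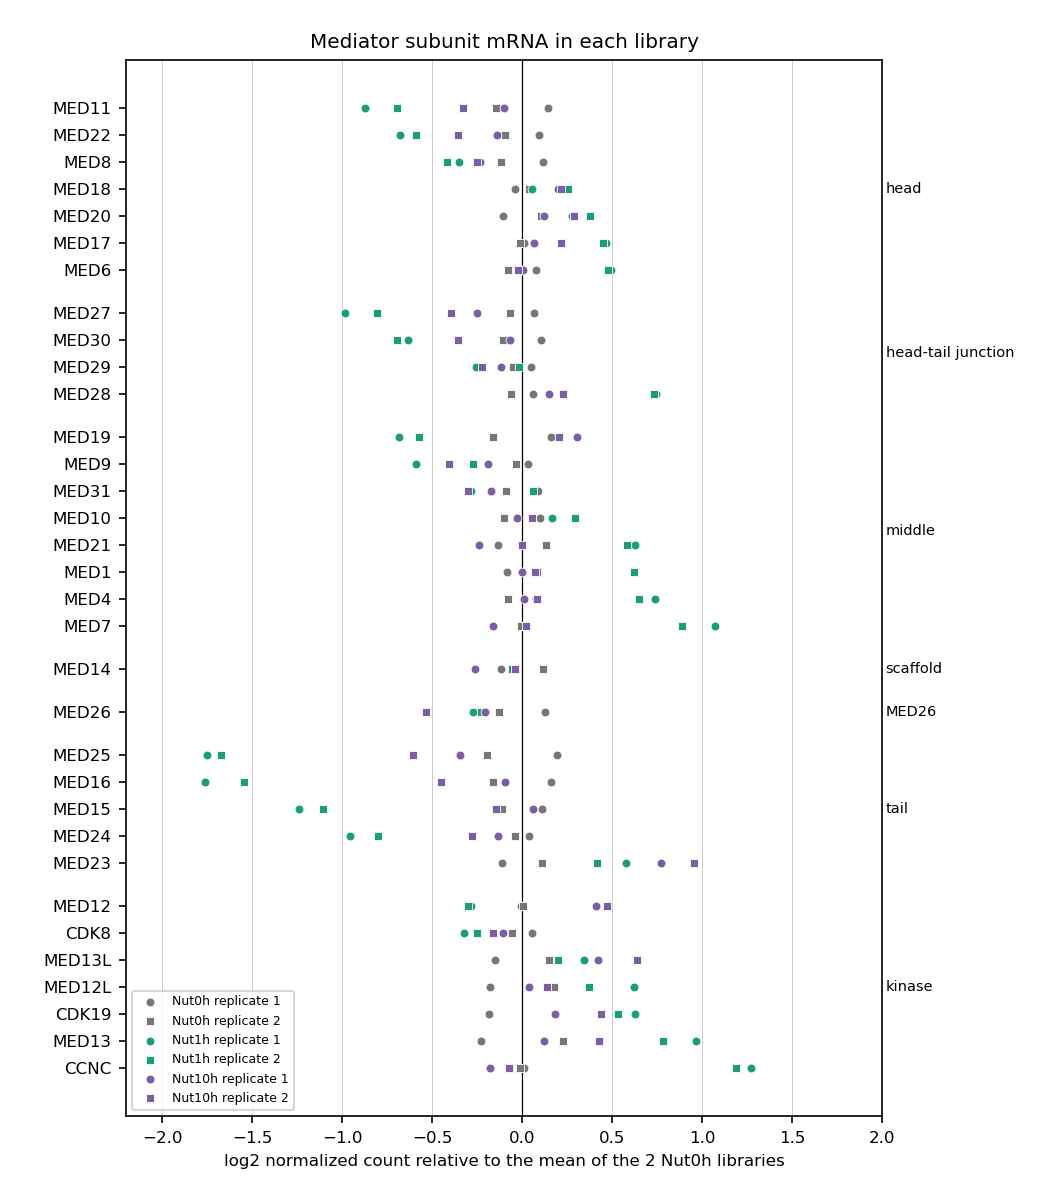
Each point is the TMM-normalized count of 1 member in 1 library, on a log2 scale relative to the mean of both Nut0h libraries, with the members grouped by Mediator module. The Nut1h libraries of CCNC lie farthest to the right and those of MED25 and MED16 farthest to the left, while at Nut10h most members lie within 0.5 of the Nut0h mean and MED23 lies highest.

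CCNC, MED25 and MED23 carry the 3 patterns described below. Without the GC-content offset they had the largest rise at Nut1h, the largest fall at Nut1h and the largest rise at Nut10h, in this order. Their promoters are shown here. Each is the run of 250 bases before the annotated start of the gene, 5′ to 3′ on the strand of the gene, from RefSeq on GRCh38.p14, a later build than that of the counts. CCNC lies at chr6:99568815-99569064 (minus strand), MED25 at chr19:49818039-49818288 (plus strand) and MED23 at chr6:131628314-131628563 (minus strand). Capitals mark matches, on either strand, to CCAAT or to TTTGAA, of which MED25 and MED23 have none.
CCNC: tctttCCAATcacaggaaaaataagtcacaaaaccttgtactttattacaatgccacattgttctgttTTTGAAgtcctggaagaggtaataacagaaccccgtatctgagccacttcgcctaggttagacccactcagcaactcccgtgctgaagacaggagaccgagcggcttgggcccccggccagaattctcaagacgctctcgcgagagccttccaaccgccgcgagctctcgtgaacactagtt
MED25: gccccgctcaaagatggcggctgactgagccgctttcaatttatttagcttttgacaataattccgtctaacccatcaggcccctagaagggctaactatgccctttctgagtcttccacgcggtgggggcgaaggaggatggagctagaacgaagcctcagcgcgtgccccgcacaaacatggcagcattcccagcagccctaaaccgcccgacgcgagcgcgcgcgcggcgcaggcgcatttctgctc
MED23: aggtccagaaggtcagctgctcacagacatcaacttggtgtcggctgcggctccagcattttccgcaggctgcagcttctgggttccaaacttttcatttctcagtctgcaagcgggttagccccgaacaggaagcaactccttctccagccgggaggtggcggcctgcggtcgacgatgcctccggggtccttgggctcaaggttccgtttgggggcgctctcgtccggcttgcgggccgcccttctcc

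Of the 33 members, 25 had an entry in the promoter table. The p53 consensus half-site, searched by its 10-letter consensus, which reads the same on both strands, was in none of these 25 promoters and in 5.53% of all 27305 promoters of this length. CCAAT was in 10 of the 25 (CCNC, CDK19, MED1, MED7, MED12L, MED13L, MED16, MED19, MED24 and MED29) and in 33.0% of all promoters. TTTGAA, the core of the CHR element of cell cycle genes, was in 3, those of CCNC, CDK19 and MED7, and in 13.6% of all. The matches in the promoter of CCNC do not overlap each other. A match is a run of letters and not a measured site, and no match says only that these letters are not in this window. The median GC content was 58.0% for the promoters of the members and 58.0% for all promoters, 52.8% for the 9 members called higher at Nut1h and 56.6% for the 10 called lower.

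The kinase module had 4 of 7 genes called higher and 2 called lower at Nut1h, where 34.5% and 32.3% of all tested genes were, the shares beside which the count of each module stands. CCNC, the cyclin that activates CDK8 and CDK19, lies on chromosome 6 of GRCh37 from 99990263 to 100016701 and had 1502 and 1479 normalized counts in the 2 libraries of Nut0h, 3596 and 3401 at Nut1h, and 1316 and 1415 at Nut10h. Here and below, replicates 1 and 2 are given in turn, after scaling each library by its TMM factor and size to the mean of the 6. Both Nut1h libraries were above the other 4. CCNC rose 2.35-fold at Nut1h (log2 fold change 1.23, standard error, SE, 0.09, adjusted p = 1.97e-07, edgeR) and fell back by 1.36 on the log2 scale between Nut1h and Nut10h (adjusted p = 2.75e-08 in the same test), values that were 0.29 and -0.46 with the GC-content offset described below. Exons of CCNC share 733 bases on the opposite strand with TSTD3. At Nut10h its log2 fold change from Nut0h was -0.13 (SE 0.09, adjusted p = 0.341, edgeR).

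The kinase genes themselves differed in sign. CDK8 (chromosome 13, 26828241 to 26995119) had 1383 and 1281 normalized counts at Nut0h, 1066 and 1118 at Nut1h, and 1237 and 1192 at Nut10h. CDK19 (chromosome 6, 110931181 to 111137161), the paralog, had 430 and 554 at Nut0h, 753 and 707 at Nut1h, and 555 and 662 at Nut10h. The Nut1h libraries were the lowest of CDK8 and the highest of CDK19, without overlap with Nut0h in either gene. The log2 fold change at Nut1h was -0.29 for CDK8 (SE 0.10, adjusted p = 0.0173, edgeR) and 0.57 for CDK19 (SE 0.13, adjusted p = 0.00175, edgeR), and with the GC-content offset -0.68 for CDK8 and, no longer called, 0.017 for CDK19 (edgeR adjusted p = 0.907). The call for CDK8 was lost when Nut0h replicate 1 or either Nut1h library was left out (edgeR adjusted p from 0.0627 to 0.143). At Nut10h neither was called, with -0.13 for CDK8 and 0.31 for CDK19, although CDK19 was called higher without Nut0h replicate 2 (0.50, edgeR adjusted p = 0.0116) and without Nut10h replicate 1 (0.43, adjusted p = 0.0209).

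MED12, the subunit that activates the kinase, and MED13, which ties the kinase module to the core, also went separate ways at Nut1h. MED12 (chromosome X, 70338393 to 70363953) had 1972 and 1992 normalized counts at Nut0h, 1626 and 1612 at Nut1h, and 2634 and 2745 at Nut10h. Its Nut1h libraries were the lowest of the 6 and its Nut10h libraries the highest, with replicates close to each other. MED12 was called lower at Nut1h (log2 fold change -0.29, SE 0.09, adjusted p = 0.0104, edgeR), a call that was lost without either Nut1h library (edgeR adjusted p = 0.0719 and 0.0772) and whose sign turned to 0.054 with the GC-content offset. It rose at Nut10h, with 0.44 against Nut0h (SE 0.09, adjusted p = 0.0019, edgeR) and 0.73 against Nut1h (adjusted p = 6.08e-06, edgeR), or 0.40 and 0.35 with the offset.

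MED13 (chromosome 17, 60019966 to 60142639) had 2749 and 3783 normalized counts at Nut0h, 6314 and 5544 at Nut1h, and 3515 and 4343 at Nut10h. Its Nut0h replicates stood far apart, yet both Nut1h libraries lay above all others, a log2 fold change of 0.86 (SE 0.14, adjusted p = 0.000101, edgeR) that was 0.084 and not called with the GC-content offset (edgeR adjusted p = 0.469). At Nut10h the groups overlapped and the log2 fold change was 0.27 (adjusted p = 0.177, edgeR), with 0.52 and 0.42, both called, without Nut0h replicate 2 and without Nut10h replicate 1. MED13L, the paralog (chromosome 12, 116395710 to 116715498), had 5219 and 6402 at Nut0h, 7335 and 6648 at Nut1h, and 7732 and 9016 at Nut10h. Here the highest level came at Nut10h, with a log2 fold change of 0.53 (SE 0.11, adjusted p = 0.0034, edgeR), after 0.27 at Nut1h (adjusted p = 0.0536, edgeR), which was 0.42 and called without Nut0h replicate 2 (edgeR adjusted p = 0.00629) and 0.036 with the GC-content offset.

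MED12L, the paralog of MED12, was the least abundant member per length. It had 131 and 168 normalized counts at Nut0h, 229 and 193 at Nut1h, and 153 and 164 at Nut10h. The Nut1h libraries were the highest, with a log2 fold change of 0.50 (SE 0.16, adjusted p = 0.0159, edgeR) that was -0.016 with the GC-content offset and was not called without Nut0h replicate 1 or Nut1h replicate 1 (edgeR adjusted p = 0.139 and 0.177).

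Within each library, the ratio of counts of 2 paralogs does not depend on the library size. CDK19 to CDK8 was 0.311 and 0.433 at Nut0h, 0.706 and 0.633 at Nut1h, and 0.449 and 0.555 at Nut10h, highest in both Nut1h libraries. MED13L to MED13 was 1.90 and 1.69 at Nut0h, 1.16 and 1.20 at Nut1h, and 2.20 and 2.08 at Nut10h, lowest in both Nut1h libraries. MED12L to MED12 was 0.0666 and 0.0844 at Nut0h, 0.141 and 0.119 at Nut1h, and 0.0580 and 0.0597 at Nut10h. In each of the 3 pairs the ratios of Nut1h did not overlap those of the other groups, and the paralog with the lower transcript GC content was the one relatively higher at Nut1h. The ratios are given as values and were not tested, and an exact permutation test of 2 libraries against 2 allows no two-sided p below 0.333.

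**Figure D2:**
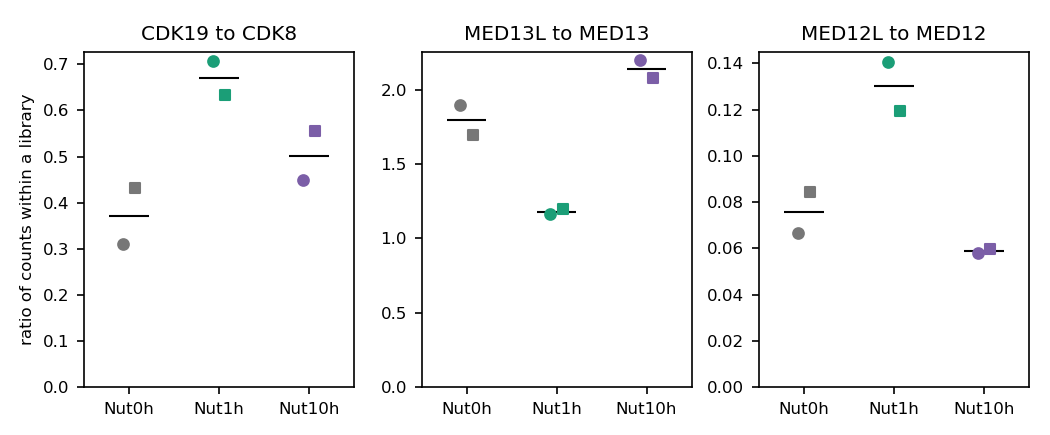
The vertical axes give the ratio of raw counts of 2 kinase module paralogs within a library, with circles for replicate 1, squares for replicate 2 and a line at the group mean. The ratios of CDK19 to CDK8 and of MED12L to MED12 are highest in both Nut1h libraries, and that of MED13L to MED13 is lowest there.

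The tail module, where most activators bind, had 4 of 5 genes called lower and 1 called higher at Nut1h. Of all tested genes 32.3% were called lower, and of those with a transcript GC content of 60% or more, where MED15, MED16 and MED25 belong, 84.2%. MED25, a target of the VP16 activation domain (chromosome 19, 50321539 to 50343640), had 7083 and 5392 normalized counts at Nut0h, 1834 and 1938 at Nut1h, and 4876 and 4068 at Nut10h. MED16 (chromosome 19, 867630 to 893218) had 7923 and 6353 at Nut0h, 2094 and 2435 at Nut1h, and 6644 and 5200 at Nut10h. MED15, which binds SREBP and SMAD proteins, had 5023 and 4318 at Nut0h, 1971 and 2161 at Nut1h, and 4858 and 4216 at Nut10h. In all 3 genes both Nut1h libraries lay below the other 4, at 0.30, 0.32 and 0.44 times the Nut0h level. The log2 fold changes at Nut1h were -1.73 for MED25 (SE 0.13, adjusted p = 2.02e-07), -1.66 for MED16 (0.14, 3.25e-07) and -1.18 for MED15 (0.11, 7.62e-07), all by edgeR. With the GC-content offset all 3 were much smaller in size and stayed called lower, at the values given below.

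At Nut10h these genes differed less from Nut0h, with log2 fold changes of -0.48 for MED25 (SE 0.13, adjusted p = 0.0106, edgeR), -0.27 for MED16 (adjusted p = 0.144, and called at -0.42 without Nut0h replicate 2 and -0.45 without Nut10h replicate 1) and -0.042 for MED15 (adjusted p = 0.807). The call for MED25 was lost without Nut0h replicate 1 (-0.27, edgeR adjusted p = 0.137) and without Nut10h replicate 2 (-0.34, adjusted p = 0.0633). MED24 fell by 0.88 on the log2 scale at Nut1h (SE 0.10, adjusted p = 3.36e-06, edgeR), with -0.30 under the GC-content offset, and had -0.21 at Nut10h. Exons of MED25 share 1438 bases with the antisense gene PTOV1-AS1 (291 to 414 counts) and those of MED16 share 255 bases with CFD on the opposite strand (508 to 3487 counts), and the sources used here do not give the strand setting of the counting.

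MED23, the tail subunit that ELK1 and the viral protein E1A bind, was the member with the largest rise at Nut10h. MED23 (chromosome 6, 131895106 to 131949382) had 728 and 850 normalized counts at Nut0h, 1172 and 1048 at Nut1h, and 1345 and 1523 at Nut10h. The 3 groups did not overlap and stood in the order of the hours of treatment. Its log2 fold change at Nut10h was 0.86, or 1.82-fold (SE 0.11, adjusted p = 5.37e-05, edgeR), and all alternatives kept it between 0.75 and 0.98. At Nut1h MED23 had 0.49 (SE 0.11, adjusted p = 0.00159, edgeR), which was -0.15 with the GC-content offset, and the difference between Nut10h and Nut1h was 0.37 (adjusted p = 0.00951, edgeR), or 0.98 with the offset and, no longer called, 0.29 without Nut1h replicate 2 (edgeR adjusted p = 0.114). Between Nut10h and Nut1h all 5 tail genes were called higher, where 34.2% of all tested genes and 81.0% of those at 60% GC or more were. With the offset only MED15 and MED23 stayed called in that comparison, and MED16 (0.14), MED24 (0.064) and MED25 (-0.032) did not.

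In the middle module 4 genes were called higher at Nut1h, 2 lower and 2 neither way, and at Nut10h none of the 8 was called, where 14.1% of all tested genes were higher and 14.9% lower. Without 1 library 2 of them were called at Nut10h, MED19 higher without Nut0h replicate 1 (0.41, edgeR adjusted p = 0.0336) and MED9 lower without Nut10h replicate 1 (-0.40, adjusted p = 0.0334). MED1, the subunit that nuclear receptors bind, had 3323 and 3730 normalized counts at Nut0h, 5425 and 5426 at Nut1h, and 3527 and 3700 at Nut10h. Its Nut1h libraries were nearly equal and far above the rest, a log2 fold change of 0.62 (SE 0.09, adjusted p = 4.49e-05, edgeR) that was 0.19 with the GC-content offset, and at Nut10h the value was 0.035 (adjusted p = 0.816). Exons of MED1 share 754 bases with an antisense gene of 325 to 677 counts. MED7, which pairs with MED21 in a hinge of the module, had 164 and 162 at Nut0h, 343 and 302 at Nut1h, and 146 and 166 at Nut10h. MED7 rose at Nut1h, with 0.98 (SE 0.14, adjusted p = 2.8e-05, edgeR), a call lost with the GC-content offset (0.25, edgeR adjusted p = 0.119), and was at -0.067 at Nut10h. MED21 had 0.60 and MED4 0.69 at Nut1h, and both were called lower with the GC-content offset, at -0.36 and -0.24. MED19 fell by 0.63 (-0.43 with the offset) and MED9 by 0.43 on the log2 scale, MED9 with -0.0063 under the offset and, no longer called, -0.27 without Nut1h replicate 1 (edgeR adjusted p = 0.163), and MED10 (0.23) and MED31 (-0.11) were not called. MED10 was called higher without Nut0h replicate 1 (0.33, edgeR adjusted p = 0.0439), and MED31 lower with the offset (-0.74). MED31 shares 1231 exon bases on the opposite strand with TXNDC17, which had 734 to 1155 counts.

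The backbone subunit MED14 had 2885 and 3381 normalized counts at Nut0h, 3029 and 3003 at Nut1h, and 2605 and 3036 at Nut10h. All 3 groups overlapped, and the log2 fold change was -0.055 at Nut1h (SE 0.11, adjusted p = 0.662, edgeR) and -0.15 at Nut10h (adjusted p = 0.312). MED26, which recruits elongation factors to the form of Mediator without the kinase module, had 515 and 433 at Nut0h, 391 and 404 at Nut1h, and 410 and 327 at Nut10h. Its 4 treated libraries were below both Nut0h libraries, and neither difference passed the threshold, with -0.25 at Nut1h (SE 0.13, adjusted p = 0.111, edgeR) and -0.36 at Nut10h (SE 0.13, adjusted p = 0.0556, edgeR). The call hung on the setting, since MED26 was lower at Nut10h without a low-count filter (edgeR adjusted p = 0.0138), without Nut0h replicate 2 (0.0165) and without Nut10h replicate 1 (0.00747), and at Nut1h without Nut0h replicate 2 (-0.37, 0.0343) and in a fit of Nut1h and Nut0h alone (0.0408). With the GC-content offset MED26 was called higher at Nut1h (0.62) and MED14 lower (-0.70). At Nut10h MED26 was called lower with the offset (-0.38, edgeR adjusted p = 0.00566). It was also called lower there in a fit blocked on replicate number (-0.37, edgeR adjusted p = 0.0351).

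The head module, the part that meets the polymerase and the general factors, was split at Nut1h, with 3 genes called higher, 3 lower and MED18 (0.16) neither way. MED11 and MED22, which form a pair, fell by 0.79 and 0.64 on the log2 scale (-0.62 and -0.33 with the GC-content offset), and MED8 by 0.39, a call lost without Nut0h replicate 1 or Nut1h replicate 2 (edgeR adjusted p = 0.0919 and 0.061). MED20, the partner of MED18, had 0.32 (0.071 with the offset), a call lost without Nut0h replicate 1 (0.22) or either Nut1h library (edgeR adjusted p from 0.0552 to 0.177), and the core subunit MED17 (0.46) and MED6 (0.48) were called higher but had -0.15 and -0.30 with the GC-content offset. Exons of MED11 share 76 bases on the opposite strand with CXCL16 (1780 to 3007 counts). None of the 7 head genes was called at Nut10h, where they lay between -0.25 and 0.21. Of all tested genes 14.1% were higher at Nut10h and 14.9% lower. MED22 was called lower at that time without Nut10h replicate 1 (-0.35, edgeR adjusted p = 0.0303) and MED8 without Nut0h replicate 2 (-0.36, adjusted p = 0.0388).

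In the group between head and tail, MED27 had 1623 and 1486 normalized counts at Nut0h, 785 and 889 at Nut1h, and 1306 and 1183 at Nut10h. Both treated groups lay below Nut0h, with log2 fold changes of -0.90 (SE 0.11, adjusted p = 5.79e-06, edgeR; -0.75 with the offset) and -0.32 (SE 0.10, adjusted p = 0.032, edgeR). The call at Nut10h was lost without Nut0h replicate 1 (-0.26, edgeR adjusted p = 0.184), without Nut10h replicate 2 (-0.24, adjusted p = 0.172), and narrowly with upper-quartile factors (adjusted p = 0.0557) and in a fit of these 2 groups alone (adjusted p = 0.0578). MED28 had 1230 and 1134 at Nut0h, 1980 and 1963 at Nut1h, and 1311 and 1384 at Nut10h. Its Nut1h libraries were the highest, and it rose by 0.74 (SE 0.09, adjusted p = 1.14e-05, edgeR), or 0.25 with the GC-content offset. MED30 fell by 0.66 at Nut1h (-1.12 with the offset) and was called lower at Nut10h without Nut10h replicate 1 (-0.35, edgeR adjusted p = 0.0439), and MED29 (-0.13) was not called.

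Members of 1 module thus stood on both sides of 0 at Nut1h, and their order followed the GC content of their transcripts. Across the 33 members the log2 fold change at Nut1h and the GC content of the canonical transcript had a Pearson r of -0.86 and a Spearman rho of -0.83, beside -0.70 and -0.77 across 16137 tested genes. The points share the same 6 libraries, and genes are not independent replicates. At Nut10h r was -0.37 across the members and -0.028 across all genes. All 6 members under 40% GC (CCNC, MED4, MED6, MED7, MED13 and MED21) were called higher at Nut1h, as were 85.1% of the 2450 genes in that band. Of the 4 members at 60% or more, MED15, MED16 and MED25 were called lower and MED26 was not called, where 84.2% of the 2673 genes were lower. For the 25 members with a promoter entry, r with the log2 fold change at Nut1h was -0.90 for transcript GC content and 0.030 for promoter GC content. Differences between the replicates of a group also went with GC content over all genes, with r of 0.46 at Nut0h, -0.28 at Nut1h and 0.57 at Nut10h.

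**Figure D3:**
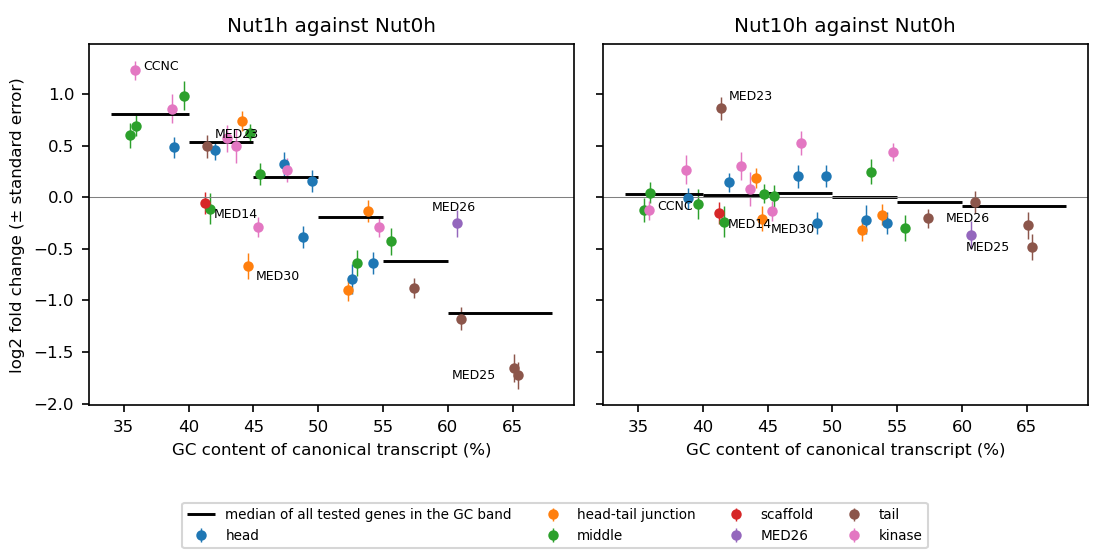
The log2 fold change of each member (point, with its standard error) is plotted against the GC content of its canonical transcript at Nut1h and at Nut10h, coloured by module, and black bars give the median of all tested genes in each GC band. At Nut1h the members fall from CCNC (1.23) to MED25 (-1.73) along with the black bars, with MED26 above its bar and MED30 and MED14 below theirs, and at Nut10h the bars lie near 0.

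Some members lay away from the median of genes of like GC content at Nut1h. The share of all genes that lay as far from their band median is not given here. The members more than 0.4 below the median log2 fold change of their band were MED30 (-1.20), MED27 (-0.70), MED31 (-0.64), MED25 (-0.61), MED11 (-0.60), MED14 (-0.59), MED8 (-0.59), MED16 (-0.54), CDK8 (-0.49), MED22 (-0.45) and MED19 (-0.44), and those more than 0.4 above it were CCNC (0.42) and MED26 (0.86). A fit with a smooth GC-content offset in each library, which takes out whatever follows GC content, was used as an alternative. With it 4 members were called higher at Nut1h (CCNC, MED1, MED26 and MED28) and 16 lower, and 3169 and 4200 of all genes were. MED26 turned from -0.25 to 0.62 (adjusted p = 9.45e-05, edgeR) and MED14 moved from -0.055 to -0.70 (adjusted p = 3e-07, edgeR). CCNC stayed higher at 0.29 (adjusted p = 0.00404, edgeR), and MED25, MED16 and MED15 stayed lower at -0.40, -0.37 and -0.28. A change in the cells that follows GC content and one from the making of the libraries cannot be told apart here, since each group is its own set of libraries.

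At Nut10h the 5 calls held with the offset, with 0.83 for MED23, 0.45 for MED13L, 0.40 for MED12, -0.43 for MED25 and -0.38 for MED27. Another 10 members passed the threshold with it, CDK19 (0.27) and MED13 (0.24) higher and MED8, MED9, MED14, MED16, MED22, MED24, MED26 and MED29 (-0.18 to -0.38) lower, while the calls over all genes also rose, from 2340 and 2470 to 2800 and 3843. Over all alternatives, 12 of the 26 calls at Nut1h held in each (MED1, MED11, MED15, MED16, MED19, MED22, MED24, MED25, MED27, MED28, MED30 and CCNC), and at Nut10h those of MED23 and MED13L did. The share of all called genes that held in each alternative is not given here. With the offset alone, calls over all genes at Nut1h went from 5722 higher and 5355 lower to 3169 and 4200. MED12 lost its call at Nut10h only when an absolute log2 fold change of at least 0.5 was asked for.

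**Figure D4:**
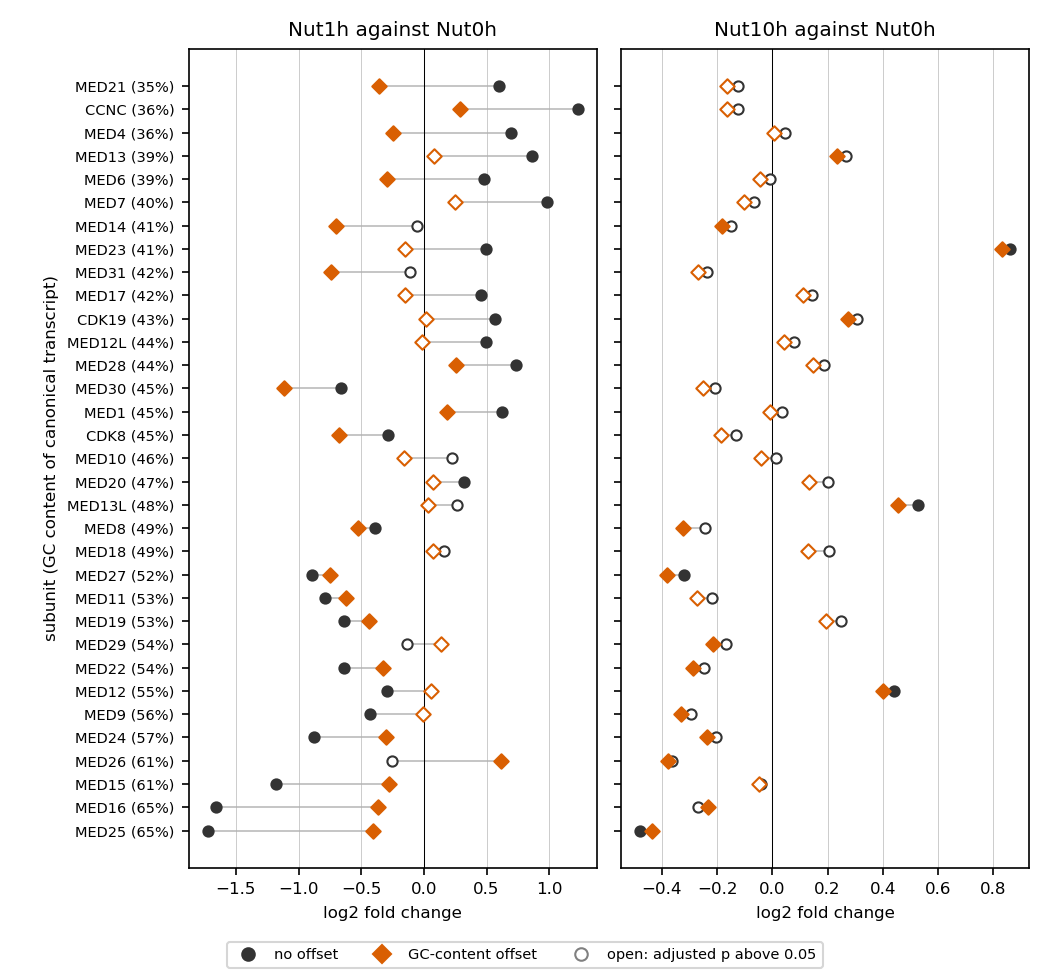
The log2 fold change of each member is shown without (circle) and with (diamond) the GC-content offset, in the order of transcript GC content, and open symbols have an adjusted p above 0.05. At Nut1h the offset moves low-GC members left and high-GC members right, leaving CCNC, MED1, MED26 and MED28 higher, and at Nut10h it moves each member by less than 0.1.

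Levels between genes were compared per kilobase of the canonical transcript. At Nut0h the lowest mean was that of MED12L, at 13.9 normalized counts per kb, followed by CDK19 (76.9) and MED7 (78.9). The highest were the tail genes MED15 (1394), MED24 (2003), MED16 (2468) and MED25 (2675), while the tail gene MED23 had 150. These levels carry no GC-content offset, and the transcripts of MED15, MED24, MED16 and MED25 have a GC content of 57.4% to 65.4%. In the kinase module CCNC (692) and MED13L (588) were above CDK8 (435), MED13 (312), MED12 (286) and CDK19. At Nut1h CCNC reached 1625 per kb, the highest mean of the 33, and MED25, MED16 and MED15 had come down to 809, 783 and 617. In each of the 6 libraries MED13L was above MED13 per kb. The libraries of CDK19 and MED7, neighbours in this order, overlapped at Nut0h.

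For the machinery that Mediator acts on, a list of 62 genes of RNA polymerase II, the general transcription factors and the elongation kinase with its partners was read from the same fit. At Nut1h 29 were called higher (46.8%) and 20 lower (32.3%), beside 34.5% and 32.3% of all tested genes, and at Nut10h 6 were higher (9.68%) and 10 lower (16.1%), beside 14.1% and 14.9%. The counts at Nut10h depended on single libraries, and the calls over all tested genes also changed when a library was left out. The general factors had 19 of 33 higher and 7 lower at Nut1h, the polymerase subunits 4 and 5 of 12, and the elongation factors 6 and 8 of 17. TAF13, a TFIID subunit, had 334 and 325 normalized counts at Nut0h and 1014 and 861 at Nut1h, the largest rise at that time (log2 fold change 1.51, adjusted p = 3.94e-07, edgeR). POLR2L, a small polymerase subunit, had 9621 and 8636 at Nut0h and 1957 and 2113 at Nut1h, the largest fall (-2.17, adjusted p = 5.29e-08, edgeR). At Nut10h the largest rise was that of TAF3 (0.81, adjusted p = 1.8e-05) and the largest fall that of TAF5 (-1.24, adjusted p = 4.41e-06, edgeR), both of TFIID. With the GC-content offset 15 of the 62 were higher at Nut1h, as were 3169 of the 16565 tested genes.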

How the data were processed

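RNA of HCT116 cells was sequenced at Nut0h, Nut1h and Nut10h, with 2 libraries per group named by the labels. The authors trimmed reads with Trim Galore 0.6.6, aligned them to GRCh37.p13 with STAR 2.7.0f and deposited unnormalized counts per gene from featureCounts (Subread 2.0.0), versions as in the submitters' processing notes. The strand setting and the treatment of multimapping reads are not given in the sources used here. A second deposited table, with the authors' own log2 fold changes and p-values (DESeq2 1.36.0), served only for its gene symbols.

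Counts were filtered with filterByExpr, TMM-normalized and tested with edgeR 4.0.16 (glmQLFit and glmQLFTest, limma 3.58.1, R 4.3.3) over all 6 libraries, with condition as the only term, 3 residual degrees of freedom and Benjamini-Hochberg adjustment over all tested genes. Standard errors (SE) are the size of a log2 fold change divided by the square root of its F statistic. Scripts were tested on simulated data. Gene positions and GC content came from GENCODE v44 lifted to GRCh37, with GC content for 97.4% of the tested genes. The GC-content offset is a loess trend (span 0.4) per library.

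The members and lists were chosen with earlier results of these data known. Values per library are given for the kinase module, MED1, MED14, MED26 and up to 4 called members with the largest rise and fall in each comparison against Nut0h, and the largest rise and fall of the polymerase II list are named. Alternatives were other normalizations, filters, DESeq2 1.42.0, designs, offsets, a minimum fold change and each library left out. Figures were drawn with matplotlib 3.10.9. An item withheld from the text is not reported here.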

Additional observations from a re-analysis of the deposited data

Results flagged for a closer look

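For 21 members, 11 higher and 10 lower (33.3% and 30.3%, against 34.2% and 33.7% of all tested genes), the change from Nut0h at Nut1h and that at Nut10h differed from each other, in a direct test of Nut10h against Nut1h (edgeR's quasi-likelihood test, adjusted p of at most 0.05 over all genes). The members lower at Nut10h than at Nut1h had log2 differences of -1.36 for CCNC, -1.05 for MED7, -0.72 for MED21, -0.65 for MED4, -0.59 for MED13, -0.59 for MED1, -0.55 for MED28, -0.49 for MED6, -0.42 for MED12L and -0.31 for MED17. Those higher at Nut10h than at Nut1h had 0.37 for MED23, 0.39 for MED22, 0.46 for MED30, 0.57 for MED11, 0.57 for MED27, 0.67 for MED24, 0.73 for MED12, 0.88 for MED19, 1.14 for MED15, 1.25 for MED25 and 1.39 for MED16. Of the 21, those of CCNC, MED1, MED7, MED12, MED15, MED19 and MED27 passed the threshold in the same direction under every alternative, and with the GC-content offset all 7 were smaller, at -0.46 for CCNC, -0.19 for MED1, -0.35 for MED7, 0.35 for MED12, 0.23 for MED15, 0.63 for MED19 and 0.37 for MED27. The offset kept 10 of the 21 calls, the others being those of MED11, MED23 and MED30. The share of all called genes that kept their call is not given here. Calls over all tested genes went from 5658 higher and 5588 lower to 4799 and 4719 with the offset. With it MED16 (0.14), MED24 (0.064), MED22 (0.039), MED25 (-0.032), MED28 (-0.11), MED12L (0.059), MED13 (0.15) and MED21 (0.20) were no longer called, and MED4, MED6 and MED17 were called the opposite way, at 0.25, 0.25 and 0.26. Leaving out Nut1h replicate 1 ended the calls of MED11 (0.48), MED22 (0.35), MED17 (-0.31) and MED12L (-0.28), leaving out Nut1h replicate 2 those of MED17 (-0.32) and MED23 (0.29), leaving out Nut10h replicate 1 those of MED17 (-0.21) and MED12L (-0.34), and leaving out Nut10h replicate 2 that of MED12L (-0.43). The length offset ended the calls of MED30 (0.23) and MED12L (-0.16) and gave 0.31 for MED27 and -0.30 for MED28. DESeq2 (-0.38) and a minimum of 10 counts in every library (-0.37) also ended that of MED12L. No group had the 4 libraries that a search for single outlying libraries needs.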

How the results depend on the processing

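With 2 libraries a group, 3 residual degrees of freedom and counts that cannot be placed by strand, small differences of low or overlapping genes may have gone uncalled. How far depth and how far the spread between libraries set this was not tested, and the lowest member had 136 counts in a library. The GC-content offset was, alone or with the replicate block, the only setting that turned the sign of a called member, and the cause was not tested. Signs of members that were not called also turned under other settings, such as MED12L at Nut10h with the length offset (-0.068) and MED26 between Nut10h and Nut1h without Nut10h replicate 2 (0.083). The GC-content offset gave 4 members called higher at Nut1h in place of 13 (3169 of all genes in place of 5722). At Nut10h 5 members were higher and 10 lower in place of 3 and 2. Of all genes 2800 and 3843 were, in place of 2340 and 2470. Between Nut10h and Nut1h 6 members were lower in place of 10 (4719 of all genes in place of 5588). In that comparison more members were higher than the 11 without the offset (4799 of all genes in place of 5658), and MED26 moved from -0.11 to -0.99. The medians of the members became -0.16 at Nut1h, -0.10 at Nut10h and 0.20 between them. Of the polymerase II list, 15 genes in place of 29 were higher at Nut1h, 17 in place of 10 lower at Nut10h, and 19 in place of 30 lower between Nut10h and Nut1h.

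At Nut1h the offset turned the log2 fold changes of MED26 (0.62), MED29 (0.14), MED10 (-0.16), MED17 (-0.15), MED6 (-0.30), MED12 (0.054), MED12L (-0.016), MED21 (-0.36), MED4 (-0.24) and MED23 (-0.15). At Nut10h it turned those of MED1 (-0.0086) and MED10 (-0.042), neither of them called. Between Nut10h and Nut1h it turned those of MED17 (0.26), MED6 (0.25), CDK19 (0.26), MED12L (0.059), MED13 (0.15), MED21 (0.20), MED31 (0.48), MED4 (0.25), MED9 (-0.33), MED14 (0.52), MED20 (0.061), MED10 (0.12) and MED25 (-0.032).

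The labels give the replicate numbers 1 and 2 in each group and no shared origin, so the main fit had no replicate term. The deviations of same-numbered libraries correlated with r of -0.31 between Nut0h and Nut1h, 0.45 between Nut0h and Nut10h and -0.28 between Nut1h and Nut10h. These values do not settle whether the same-numbered libraries of Nut0h and Nut10h were paired. The deviations also went with GC content, with r of 0.46 at Nut0h, -0.28 at Nut1h and 0.57 at Nut10h. A replicate block called 5664 genes higher and 5315 lower at Nut1h, 2371 and 2522 at Nut10h, and 5633 and 5556 between Nut10h and Nut1h, and added 1 member call at Nut1h (MED13L, 0.28, edgeR adjusted p = 0.0409), 1 at Nut10h (MED26, -0.37, edgeR adjusted p = 0.0351) and none between them. The block together with the GC-content offset was an alternative chosen after seeing the data. Members called were 4 higher at Nut1h, 5 higher and 10 lower at Nut10h, and 6 lower between Nut10h and Nut1h. Medians were -0.16, -0.10 and 0.19, with 14, 17 and 19 genes of the polymerase II list for the counts given above. Over all genes this setting called 3034 higher at Nut1h, 2702 higher and 3699 lower at Nut10h, and 4624 lower between Nut10h and Nut1h. It gave log2 fold changes at Nut1h of 0.61 (MED26), 0.14 (MED29), -0.16 (MED10), -0.15 (MED17), -0.30 (MED6), 0.055 (MED12), -0.016 (MED12L), -0.36 (MED21), -0.24 (MED4) and -0.15 (MED23), and between Nut10h and Nut1h gave 0.26 (MED17), 0.25 (MED6), 0.25 (CDK19), 0.059 (MED12L), 0.15 (MED13), 0.19 (MED21), 0.48 (MED31), 0.25 (MED4), -0.33 (MED9), 0.52 (MED14), 0.058 (MED20), 0.12 (MED10) and -0.032 (MED25).

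A minimum absolute log2 fold change of 0.5 left 8 members higher at Nut1h and 0 lower at Nut10h. Of the 16565 tested genes it left 4365 higher at Nut1h and 1372 lower at Nut10h. Of the polymerase II list it left 6 lower at Nut10h and 17 lower between Nut10h and Nut1h, where 4354 of all genes were lower. Lower members at Nut10h numbered 1 with upper-quartile factors, 1 in a fit of the 2 groups compared and 5 without a filter. Of all genes 2102, 2006 and 3094 were lower in these settings, the last out of 31523 tested. The median of the members at Nut10h was -0.021 with upper-quartile factors, -0.046 with library size only, -0.11 without a filter, -0.051 with at least 10 counts in every library and -0.087 with DESeq2, and at Nut1h it was 0.00096 with library size only.

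With each library left out in turn, members called higher ranged from 11 to 14 at Nut1h, from 3 to 5 at Nut10h and from 9 to 12 between them, and members called lower from 10 to 14, from 0 to 7 (0 without Nut0h replicate 1 or Nut10h replicate 2) and from 8 to 10. The medians ranged from -0.049 to 0.064 at Nut1h (0.064 without Nut0h replicate 2), from -0.084 to -0.016 at Nut10h and from -0.090 to 0.088 between them. For the polymerase II list the number higher at Nut10h ranged from 5 to 11 and the number lower from 4 to 13. None of these left-out libraries turned the sign of a called member. Each of these fits left 1 library in a group, and calls over all tested genes changed in them too. At Nut1h fewer of all genes were called in both directions in each fit. At Nut10h the calls over all genes were fewest without Nut0h replicate 1 or Nut10h replicate 2. Between Nut10h and Nut1h fewer of all genes were called lower in each fit.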

Other observations

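The antisense gene of MED14, listed as MED14-AS1 in the deposited symbols, had 59 and 41 counts at Nut0h, 4 and 3 at Nut1h, and 35 and 34 at Nut10h. It was named after its values were seen, and it shares 212 exon bases with MED14 on the opposite strand. The 19 rows whose symbols read as Mediator pseudogenes held at most 3 counts in any library.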
